A study of Mus musculus with 6 samples.

Results

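The claudins, the connexins and 7 further tight junction genes were followed in mouse keratinocytes that carried the v-ras-Ha oncogene and were cultured with Anakinra or with PBS. The set was every gene whose name on the array starts with Cldn or with Gja, Gjb, Gjc or Gjd and a digit, together with Ocln, Tjp1, Tjp3, Cgn, F11r, Marveld2 and Marveld3. It held 45 of the 27573 genes with a probe on the array: 21 claudins, 17 connexins, 4 other membrane proteins of the tight junction and 3 scaffold proteins. A change was reported only for genes with a probe that every array of the Anakinra or of the PBS group read as well above background, which left 33 of the 45 (15 claudins, 11 connexins, all 4 membrane proteins and all 3 scaffolds) among 16495 genes tested.

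Anakinra is a recombinant interleukin-1 receptor antagonist, which occupies the receptor without activating it. All 6 cultures were wild-type primary keratinocytes from newborn epidermis and were transduced with v-ras-Ha at 10 viral particles per cell. In the Anakinra group (3 cultures) the antagonist was added at 5 ug/ml, 5 hours after transduction, replaced after 2 days, and RNA was taken after 3 days of culture. The PBS group (3 cultures) was transduced in the same way and received PBS, and no culture lacked the oncogene. The preparation also held hair follicle buds, and the labels do not say whether the cultures came from separate or pooled animals, so that p-values measure the spread between these 6 cultures. In such bulk RNA, fewer cells of a type and less RNA per cell cannot be told apart.

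Tight junctions seal the space between neighbouring epithelial cells. Claudins are 4-pass membrane proteins that form the sealing strands, and which claudins a cell makes sets what the seal lets through. Occludin, tricellulin and the junctional adhesion molecules lie in the same membrane domain, and scaffolds such as ZO-1 tie them to actin. Connexins assemble into channels that join the cytoplasm of neighbouring cells at gap junctions. In epidermis the seal lies in the granular layer, claudin proteins also occur below it, and inherited connexin faults in people cause thickened skin and deafness.

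Levels are log2 signals relative to the 75th percentile of the same array, so that 0 is the level of that percentile and each unit is a factor of 2. The 75th percentile itself was 1002, 1087 and 1065 intensity units on the Anakinra arrays and 864, 987 and 1006 on the PBS arrays. Changes are Anakinra minus PBS, with the standard error and the Benjamini-Hochberg adjusted p of limma over all 16495 genes.

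Some arrays stood apart. Anakinra 2 had 86.5% of its probes well above background, against 56.1% and 55.6% on Anakinra 1 and 3 and 66.9%, 62.5% and 71.0% on the PBS arrays. Arrays correlated at r = 0.957 to 0.983 within Anakinra and at 0.995 to 0.997 within PBS, across probes, which are not independent replicates. On Anakinra 3, probes near the 3′ end of a transcript were bright relative to probes nearer its 5′ end: the median over 3643 genes with such a pair was 0.23 log2 units above the PBS mean, against 0.01 and -0.02 on Anakinra 1 and 2 and -0.03 to 0.02 on the PBS arrays. Anakinra 1, PBS 2 and PBS 3 shared slide 1, and Anakinra 2, Anakinra 3 and PBS 1 shared slide 2, each scanned 1 time. Scaling each array by its median shifted the median change of all genes to -0.32, against 0.01 with the 75th percentile. Of all genes called, 54.8% were higher in Anakinra with the 75th percentile and 14.0% with the median.

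Of the 33 tested members, 1 passed an adjusted p of 0.05: Cldn7, which fell. No member passed as higher. The background share over all genes was 1.77% in either direction, 0.970% higher and 0.800% lower, beside 3.03% of the members (1 of 33). At an unadjusted p under 0.05, 4 members were higher, among them Gjb2, Gjb5 and Gjb6, and 3 were lower (Cldn3, Cldn4 and Cldn7), where the background was 8.48% of all genes higher and 7.61% lower, 16.1% in all. The 3 Anakinra values did not overlap the 3 PBS values in 10 members, 5 in each direction, which is 30.3% of those tested against a background of 26.2%. The median change of the tested members was 0.15, beside 0.01 over all genes tested. It was -0.0015 without Anakinra replicate 2 and 0.05 without PBS replicate 1. With each array scaled by its median it was -0.18, and 13 of the 20 positive changes turned negative.

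**Figure D1:**
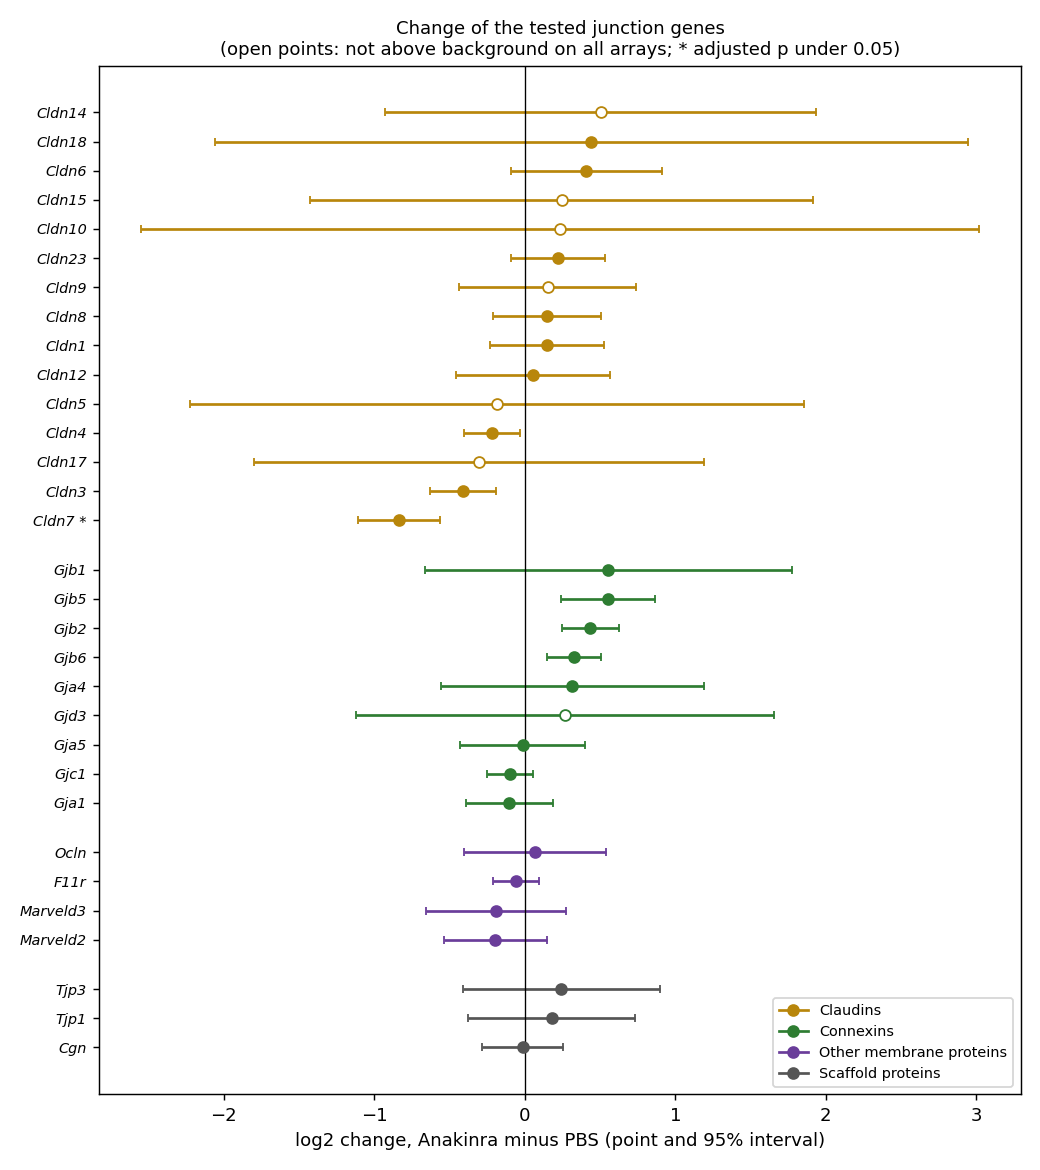
Change in log2 signal (Anakinra minus PBS, horizontal axis) of 31 of the 33 tested junction genes, by family, with each gene's 95% interval from limma over 3 arrays a group. Open points were not above background on all 6 arrays; the interval of Cldn7, the starred gene, runs from -1.11 to -0.56, and those of Cldn10, Cldn18 and Cldn5 are among the widest.

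Among the claudins, Cldn7 fell with Anakinra and Cldn3 and Cldn4 had lower values on every Anakinra array. All 3 are claudins of many epithelia, and Cldn3 and Cldn4 are the receptors of Clostridium perfringens enterotoxin. Of the 15 tested claudins, 1 fell, none rose and 14 did not pass, with 10 positive changes, 5 negative ones and a median of 0.15. The groups did not overlap in 4 of the 15 (26.7%, background 26.2%).

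Cldn7, a claudin that also occurs along the lateral membrane of epithelial cells, had 3.30, 2.98 and 3.18 on the Anakinra arrays and 3.96, 4.09 and 3.90 on the PBS arrays. The highest Anakinra value lay below the lowest PBS value by more than the spread within either group. The means were 3.15 ± 0.16 in Anakinra and 3.98 ± 0.10 in PBS (SD, n = 3 each), a change of -0.83 ± 0.11 (SE, limma adjusted p = 0.0338, 95% interval -1.11 to -0.56), or 1.78-fold lower. The difference was -0.70 within slide 1 and -0.89 within slide 2. The call rested on all 6 arrays: leaving out any 1 of them gave changes between -0.91 and -0.75 with limma adjusted p between 0.0504 and 0.243, and slide as a block gave -0.79 with 0.115. The probe lay on chromosome 11, at 69783473 to 69783782 of build mm8, a stretch longer than the probe itself, and it is the gene's only probe.

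Cldn3, whose probe gave the highest claudin signal (signals of different probes do not rank their genes), had 5.10, 4.96 and 4.98 on the Anakinra arrays and 5.43, 5.54 and 5.30 on the PBS arrays. Its change of -0.41 ± 0.09 did not pass (limma adjusted p = 0.105, 95% interval -0.63 to -0.19). The groups did not overlap, and the difference was -0.33 within slide 1 and -0.46 within slide 2. Cldn4, shown in full for its place beside Cldn3 after its values were seen, had 4.88, 4.81 and 4.80 with Anakinra and 5.15, 5.04 and 4.96 with PBS, and its change was -0.22 ± 0.07 (limma adjusted p = 0.253). Both genes lie on chromosome 5, where their probes start at 135271936 and 135230104 in mm8, with the probe of the claudin Cldn13 at 135199467 on the same stretch. Cldn13 was well above background on Anakinra 2 and PBS 3 and on no other array.

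The promoter windows of these 3 claudins are shown because these had the lowest p among the claudins; they were picked after the values were seen. Each runs from 250 bases before the start site to 50 after it, 5′ to 3′ along the gene, from RefSeq on GRCm38.p6 (Cldn7 at chr11:69964529-69964828, plus strand, the first of 2 windows the table holds; Cldn3 at chr5:134985964-134986263, plus strand; Cldn4 at chr5:134946885-134947184, minus strand). Capitals mark matches on either strand to 6 motifs: the AP-1 letters TGANTCA, the grainyhead-like letters AACCGGTT, the GC box GGGCGG, the E-box CAGGTG, the TATA letters TATAAA, and the NF-kB consensus.
Cldn7: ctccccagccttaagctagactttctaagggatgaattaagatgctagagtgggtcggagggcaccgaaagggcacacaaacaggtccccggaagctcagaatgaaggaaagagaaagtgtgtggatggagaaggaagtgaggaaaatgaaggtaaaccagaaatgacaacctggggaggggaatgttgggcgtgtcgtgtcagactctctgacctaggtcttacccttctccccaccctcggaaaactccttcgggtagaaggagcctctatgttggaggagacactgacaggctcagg
Cldn3: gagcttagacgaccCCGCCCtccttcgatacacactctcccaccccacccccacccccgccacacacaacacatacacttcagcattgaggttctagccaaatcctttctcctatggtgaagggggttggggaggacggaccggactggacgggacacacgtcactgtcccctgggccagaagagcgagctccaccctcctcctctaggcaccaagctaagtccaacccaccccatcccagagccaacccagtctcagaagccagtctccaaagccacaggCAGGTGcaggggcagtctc
Cldn4: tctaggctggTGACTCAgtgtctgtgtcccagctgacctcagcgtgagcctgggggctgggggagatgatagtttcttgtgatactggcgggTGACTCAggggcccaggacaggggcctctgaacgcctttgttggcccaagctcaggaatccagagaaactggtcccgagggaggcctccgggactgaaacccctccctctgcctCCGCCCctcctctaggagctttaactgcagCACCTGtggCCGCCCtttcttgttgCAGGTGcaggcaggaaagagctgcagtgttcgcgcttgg
The Cldn4 window held the AP-1 letters at positions -240 and -158 from the start, 2 GC boxes and 2 E-boxes. The Cldn3 window held 1 GC box and 1 E-box, and the Cldn7 window held none of the 6 motifs. Over all 32851 windows of this length in the table, 7.81% held the AP-1 letters, 35.7% a GC box and 20.2% the E-box. Among the 25 tested members with a window, 4 held the AP-1 letters (Cldn4, Cldn15, F11r and Gja1), 14 a GC box and 9 the E-box. A match describes the letters and not a bound site.

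Cldn1, without which newborn mice lose their epidermal water barrier, did not pass. Its brighter probe had 3.65, 3.32 and 3.23 on the Anakinra arrays and 3.06, 3.36 and 3.34 on the PBS arrays, a change of 0.15 ± 0.15 with a 95% interval of -0.23 to 0.52. Its other probe, nearer the 3′ end, had 2.57, 2.33 and 2.91 with Anakinra and 1.89, 2.10 and 2.08 with PBS, a difference of 0.58 with no overlap. The probes thus differed in size of change, and on Anakinra 3 the 3′ probe was 0.91 log2 units brighter relative to the 5′ probe than in the PBS mean. The part of probe position in the Cldn1 difference was not tested.

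The other claudins above background on all 6 arrays did not pass. Cldn6, best known from early epithelia and embryonic epidermis, had a change of 0.41 ± 0.20, and Cldn23 one of 0.22 ± 0.12 with no overlap between the groups. Cldn8, a claudin of the distal kidney tubule, had a change of 0.15 ± 0.14 and Cldn12 one of 0.05 ± 0.20. Cldn18, a claudin of stomach and lung, spread from -5.20 to -1.42 on the Anakinra arrays, and its 95% interval of -2.06 to 2.95 admits a large change either way.

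The remaining 6 tested claudins passed the filter through PBS, where they were above background on all 3 arrays, against 1 or 2 of the Anakinra arrays. Cldn14, a claudin of the inner ear and kidney, had -4.89, -3.19 and -5.22 on the Anakinra arrays and -4.62, -5.23 and -4.96 on the PBS arrays, a change of 0.50 ± 0.57. Anakinra 2 was the only high value, and without it the change was -0.12. Likewise the changes of Cldn10 and Cldn15, claudins that form ion channels, were 0.23 ± 1.10 and 0.24 ± 0.66 and became -0.74 and -0.44 without Anakinra 2. That array also turned the sign of Cldn18, from a change of 0.44 over all arrays to -0.47 without it. Cldn5, the main claudin of blood vessels, had a change of -0.18 ± 0.81, Cldn9 one of 0.15 ± 0.23, and Cldn17, an anion channel claudin whose PBS 1 spot was left out as an outlier, one of -0.30 ± 0.55 over 2 PBS arrays.

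The other membrane proteins of the tight junction had changes between -0.19 and 0.07, and none of the 4 passed. F11r (JAM-A), an immunoglobulin-type adhesion molecule with the highest probe signal of the 4, had 4.78, 4.68 and 4.76 on the Anakinra arrays and 4.79, 4.82 and 4.79 on the PBS arrays. Its groups did not overlap, but the change was only -0.06 ± 0.06, with a 95% interval of -0.21 to 0.09. Ocln (occludin) had a change of 0.07 ± 0.19, with an interval of -0.40 to 0.54. Marveld2 (tricellulin), which sits where 3 cells meet, and its relative Marveld3 had changes of -0.19 ± 0.14 and -0.19 ± 0.18.

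Second probes of these genes gave -0.24 for Ocln, and -0.18 for Marveld2 and -0.36 for Marveld3, the latter 2 without overlap between the groups. The Ocln probes therefore differed in sign. The brighter Ocln probe, at the 3′ end, had -0.09, -0.41 and 0.27 with Anakinra and -0.27, -0.04 and -0.13 with PBS, so that its highest value was on Anakinra 3. Without Anakinra 3 its change was -0.10. On that array the 3′ probe stood 0.95 log2 units higher against the 5′ probe than in PBS, and the part of probe position in the Ocln values was not tested.

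None of the 3 scaffold proteins passed. Tjp1 (ZO-1), which binds claudin tails and actin and had the highest probe signal of the 3, had 1.09, 0.75 and 1.55 on the Anakinra arrays and 0.80, 1.07 and 0.97 on the PBS arrays. The change was 0.18 ± 0.22 with a 95% interval of -0.37 to 0.74, the highest value was again on Anakinra 3, and without that array the change was -0.03. Its second probe, nearer the 5′ end, differed by -0.29. Tjp3 (ZO-3) had a change of 0.24 ± 0.26, which was 0.059 without Anakinra 2 and 0.52 without Anakinra 3. Cgn (cingulin), which links the junction to the cytoskeleton, had one of -0.01 ± 0.11, while its 2 dimmer probes differed by 0.07 and 0.51. Both dimmer probes had their highest value on Anakinra 2, at -2.08 and -3.87. The highest values on the other arrays were -3.08 and -4.68.

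**Figure D2:**
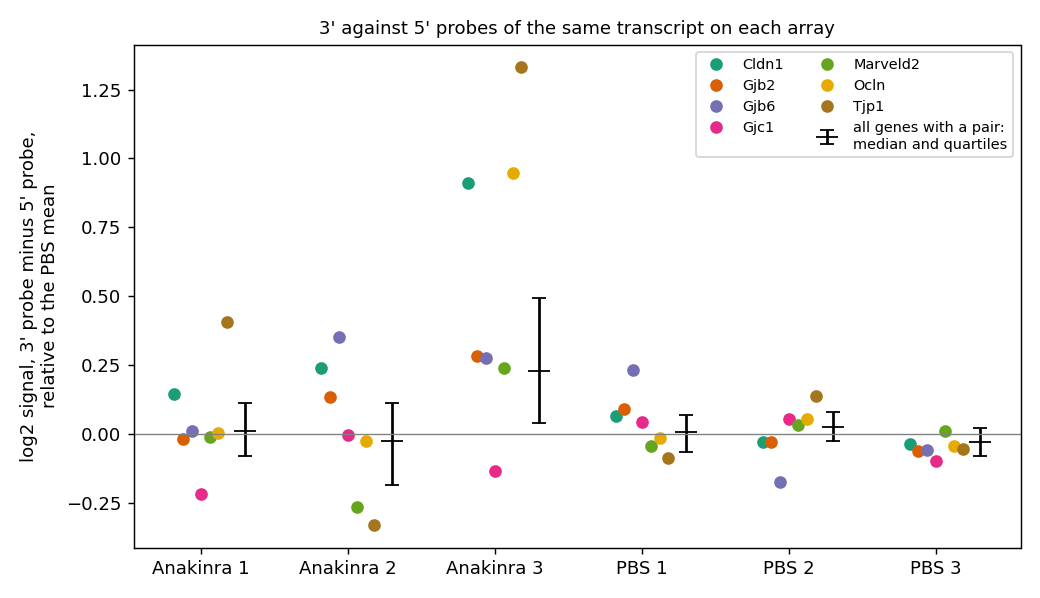
Log2 signal of the 3′-most probe minus the 5′-most probe of the same transcript, relative to the PBS mean of that difference, on each of the 6 arrays. Points are the 7 members with such a pair and bars the median and quartiles over 3643 genes; on Anakinra 3 the median was 0.23, and Tjp1, Ocln and Cldn1 stood at 1.33, 0.95 and 0.91.

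Among the connexins, Gjb2, Gjb5 and Gjb6 had higher values on every Anakinra array than on any PBS array, and no connexin passed the adjusted threshold. All 3 are beta connexins that occur in stratified epithelia, and Gjb2 and Gjb6 carry mutations in human deafness and skin disease. Of the 11 tested connexins, 7 had positive and 4 negative changes, with a median of 0.27. The groups did not overlap in 5 of the 11, 4 higher and 1 lower, where the background was 12.5% higher and 13.8% lower. With each array scaled by its median the changes were 0.11 for Gjb2, 0.22 for Gjb5 and 0.000105 for Gjb6.

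Gjb2, whose probe gave the highest connexin signal, had 3.46, 3.59 and 3.45 on the Anakinra arrays and 3.13, 2.98 and 3.07 on the PBS arrays. The lowest Anakinra value lay above the highest PBS value. The means were 3.50 ± 0.08 in Anakinra and 3.06 ± 0.07 in PBS (SD, n = 3 each), and the change of 0.44 ± 0.08 (95% interval 0.25 to 0.63) had a limma adjusted p of 0.0696. The limma adjusted p was 0.0485 with quantile normalization, 0.0344 with normexp background correction and 0.0376 over genes above background on all 6 arrays. Those were its only calls among the alternatives. It was 0.185 with slide as a block, 0.132 with the mean of its probes and 0.295 with no filter. With each array scaled by its median it was 0.929, and without any 1 array it lay between 0.111 and 0.372. The difference was 0.43 within slide 1 and 0.39 within slide 2, and the second Gjb2 probe differed by 0.30.

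Gjb6, the neighbour of Gjb2 and its partner in mixed channels, had 1.77, 1.70 and 1.61 with Anakinra and 1.31, 1.42 and 1.36 with PBS. Its change was 0.33 ± 0.07 (limma adjusted p = 0.109), and its second probe differed by 0.54. Both of its probes were thus higher in every Anakinra array, and those of Gjb2 too.

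Gjb5 had 0.76, 0.60 and 0.88 on the Anakinra arrays and 0.02, 0.21 and 0.36 on the PBS arrays. Its change of 0.55 ± 0.12 did not pass (limma adjusted p = 0.118, 95% interval 0.24 to 0.87). The difference was 0.48 within slide 1 and 0.72 within slide 2.

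On chromosome 4 of mm8 the probe of Gjb5 starts at 126857725, and on chromosome 14 those of Gjb2 and Gjb6 start at 56052902 and 56078290. Gjb1, the connexin of liver and Schwann cells, had -4.60, -2.85 and -3.48 with Anakinra and -4.37, -4.45 and -3.78 with PBS. Its change of 0.55 ± 0.48 was 0.16 without Anakinra 2.

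**Figure D3:**
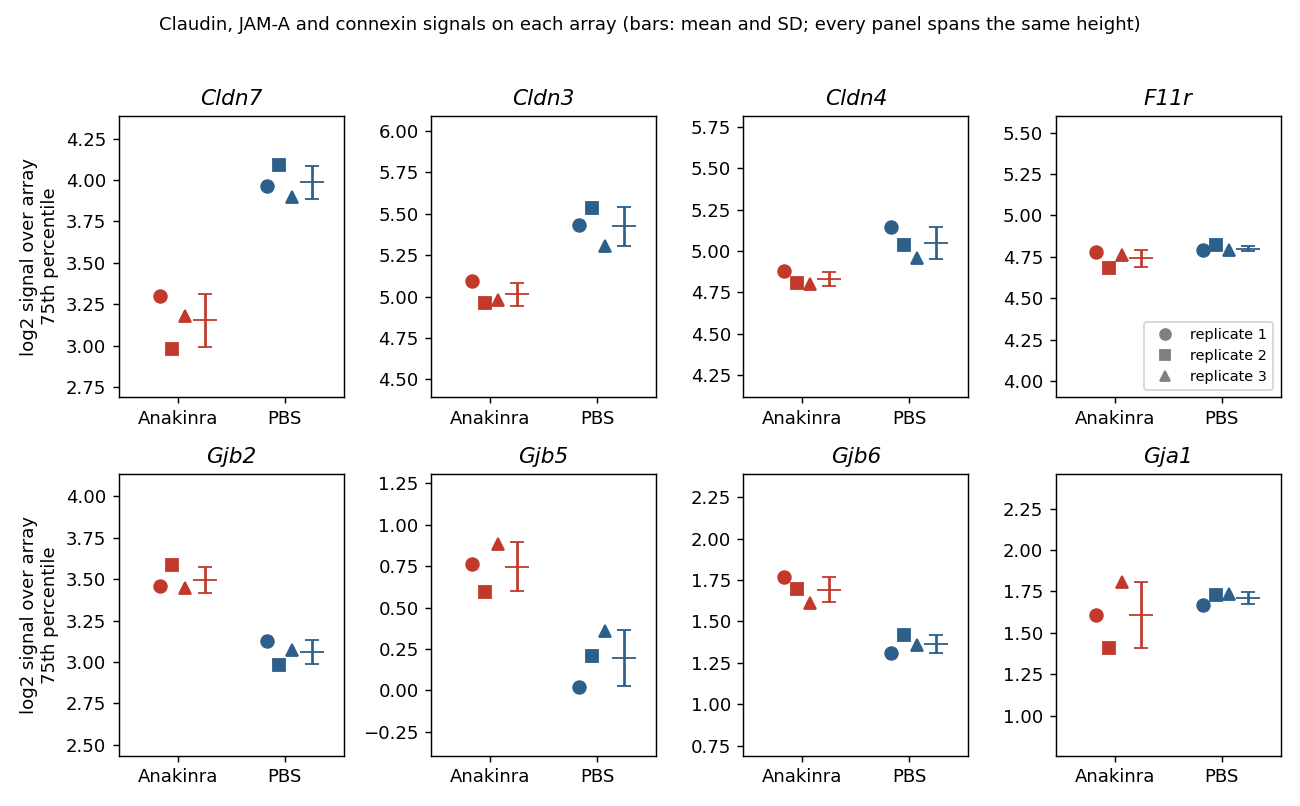
Log2 signal over the array's 75th percentile on each array for 4 tight junction genes (top) and 4 connexins (bottom); Anakinra points stand left and PBS points right, with the mean and SD of 3 arrays, and each panel spans the same height in log2 units. The groups do not overlap in 7 of the 8 panels, all but that of Gja1, several having been picked after their values were seen (30.3% of all tested members and 26.2% of all genes do not overlap), and the gap is widest for Cldn7 (3.15 in Anakinra, 3.98 in PBS) and slight for F11r (4.74 in Anakinra, 4.80 in PBS).

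The promoter windows of Gjb2, Gjb6 and Gjb5 are shown because these connexins had the lowest p among the connexins, with the same window, source and capitals as above (chr14:57104653-57104952, chr14:57133562-57133861 and chr4:127358115-127358414, all on the minus strand of GRCm38.p6).
Gjb2: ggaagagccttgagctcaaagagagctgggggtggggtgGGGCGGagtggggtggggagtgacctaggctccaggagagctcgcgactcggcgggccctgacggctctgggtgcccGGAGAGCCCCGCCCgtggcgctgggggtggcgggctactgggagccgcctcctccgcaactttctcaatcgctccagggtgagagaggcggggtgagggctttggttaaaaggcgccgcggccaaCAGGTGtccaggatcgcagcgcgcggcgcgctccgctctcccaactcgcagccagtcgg
Gjb6: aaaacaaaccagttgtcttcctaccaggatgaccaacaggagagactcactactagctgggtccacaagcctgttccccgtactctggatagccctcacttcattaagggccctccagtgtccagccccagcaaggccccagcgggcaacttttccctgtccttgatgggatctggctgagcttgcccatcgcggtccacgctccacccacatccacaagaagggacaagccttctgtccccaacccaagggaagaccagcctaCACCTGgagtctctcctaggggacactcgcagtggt
Gjb5: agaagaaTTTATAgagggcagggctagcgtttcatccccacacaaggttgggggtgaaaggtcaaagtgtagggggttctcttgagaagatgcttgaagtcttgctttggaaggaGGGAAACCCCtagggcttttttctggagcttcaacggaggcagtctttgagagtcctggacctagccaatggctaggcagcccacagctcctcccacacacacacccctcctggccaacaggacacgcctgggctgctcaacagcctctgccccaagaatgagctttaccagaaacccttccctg
The NF-kB consensus matched in the Gjb2 window at position -134 from the start, where it overlaps a GC box, and in the Gjb5 window at position -135. These were the only 2 of the 25 tested members with a window that held it, 8% of them, beside 8.46% of all windows. Gjb5 also held the TATA letters, on the opposite strand at position -243, near the far end of the window. These letters were present in 13.6% of all windows. The grainyhead-like letters were in none of the 25 (0.146% of all windows).

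The tested alpha, gamma and delta connexins did not pass. Gja1, a connexin of many tissues and of keratinocytes, had 1.61, 1.41 and 1.81 on the Anakinra arrays and 1.67, 1.73 and 1.74 on the PBS arrays, a change of -0.10 ± 0.11 (95% interval -0.39 to 0.19). Gjc1 had a change of -0.10 ± 0.06 without overlap between the groups, and its second probe differed by 0.02. Gja4, a connexin of blood vessels, had a change of 0.32 ± 0.35, which was 0.026 without Anakinra 2 and 0.68 without Anakinra 1. Gjd3 passed the filter through PBS, with 2 of the Anakinra arrays above background. Its change was 0.27 ± 0.55, and -0.27 without Anakinra 2. The Gja5 change of -0.01 ± 0.17 is uncertain, because the brightest probe named Gja5 lies at 98496448 on chromosome 3, away from the probes of the gene's RefSeq transcript at 97136450 and 97138831. Those 2 dimmer probes differed by 0.41 and 0.69. Both had their highest value on Anakinra 2, at -3.14 and -3.69, while their values on the other arrays lay between -5.55 and -4.67.

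The 12 members outside the test were dim. They included the claudins Cldn2, Cldn11, Cldn13, Cldn16, Cldn19 and Cldn22 and the connexins Gja3, Gja6, Gja10 and Gjd2, which are known from kidney, myelin, testis, lens, neurons and retina among other tissues. On Anakinra 2, 11 of the 12 were well above background, against 0 on Anakinra 1 and 0 on Anakinra 3, and 2, 0 and 4 on the PBS arrays. All 12 had their highest value on Anakinra 2. Their levels on the other arrays were at or near background, and no change is given.

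**Figure D4:**
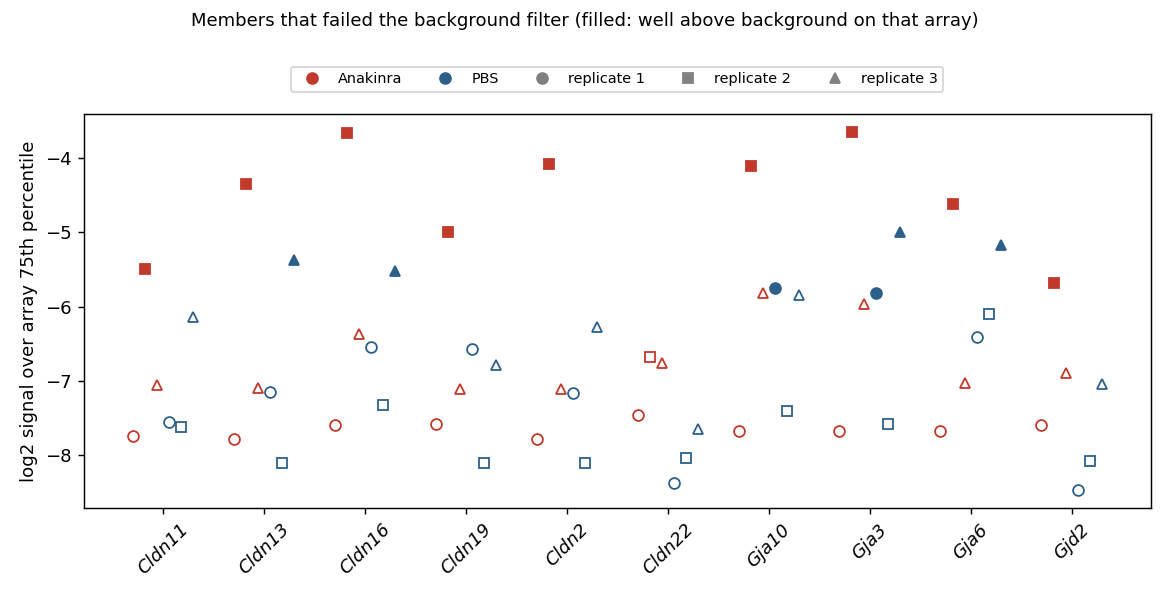
Log2 signal over the array's 75th percentile of 10 of the 12 members that failed the background filter, on each of the 6 arrays; filled symbols were well above background on that array. The filled Anakinra 2 squares stand above the other arrays for 9 of these 10 genes.

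Other junction genes were followed in lists of 31 further tight junction genes, 11 adherens junction genes and 3 pannexins, of which 42 of 45 were tested. None passed the adjusted threshold in limma, 4 were higher and 7 lower at an unadjusted p under 0.05, and the groups did not overlap in 33.3% of them, with a median change of 0.05. Over all genes the shares were 8.48% higher, 7.61% lower and 26.2% without overlap, and the median was 0.01. In the tight junction list the lowest p belonged to Cgnl1 (paracingulin), a relative of cingulin, with -0.68 ± 0.15 (limma adjusted p = 0.119), and to Marveld1, with 0.25 ± 0.06 (0.134). In the adherens list they belonged to Nectin2, a nectin adhesion molecule, with -0.37 ± 0.06 (limma adjusted p = 0.0584), and to Afdn (afadin), which binds nectins, with -0.63 ± 0.16 (0.157). Panx1, a channel protein related in shape to connexins, had a change of -0.16 ± 0.10. Among 5 tested regulators of junction genes or junction proteins none passed in limma, and 1 was higher at an unadjusted p under 0.05. The lowest p belonged to Cnst (consortin), which binds connexins in transport, with 0.39 ± 0.14, and to the epidermal transcription factor Grhl1, with 0.15 ± 0.06.

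Marker genes gave the state of the cultures beside these values. The basal keratinocyte markers Krt5 and Krt14 averaged 8.80 and 8.86 in Anakinra and 8.94 and 8.90 in PBS, and of the 5 basal markers none passed (limma, 0 also at an unadjusted p under 0.05), with a median change of -0.10. Of 8 suprabasal differentiation markers 7 rose, with a median change of 1.03: Krt1 by 2.35 ± 0.19, Dsg1a by 1.78 ± 0.15, Dsc1 by 1.23 ± 0.11 and Tgm1 by 0.71 ± 0.07, with limma adjusted p of 0.0112, 0.0124, 0.0125 and 0.0151 in that order. Their summed level was 7.61 to 7.95 on the Anakinra arrays and 6.79 to 7.09 on the PBS arrays. The Gjb2, Gjb5, Gjb6 and Cldn7 values thus stood beside higher differentiation markers, whose part in them was not tested.

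Markers of other cell types were also followed. Of 7 fibroblast markers 2 rose, Lum (1.43 ± 0.15, limma adjusted p = 0.02) and Col3a1 (0.95 ± 0.13, 0.0402). At an unadjusted p under 0.05 in limma, 4 were higher and 1 was lower, Dcn at -0.38 ± 0.07. The changes of Col1a1 and Col1a2 were 0.23 ± 0.14 and 0.18 ± 0.10. The summed level of the 7 was 3.49 to 3.71 in Anakinra and 3.14 to 3.44 in PBS. Of 7 melanocyte markers none passed, 3 were higher at an unadjusted p under 0.05, and the summed level was 6.53 to 6.63 in Anakinra and 6.32 to 6.59 in PBS. Of 5 hair follicle markers 4 were tested and Krt79 rose (0.86 ± 0.06, limma adjusted p = 0.00739). Sox9, Lhx2 and Krt17 did not pass, with changes of 0.14 ± 0.14, -0.09 ± 0.08 and -0.03 ± 0.09. The summed level was 8.72 to 8.81 in Anakinra and 8.68 to 8.95 in PBS. Nearly all of it came from Krt17, which averaged 8.725 in Anakinra and 8.757 in PBS. Of 5 endothelial markers 3 were tested and none passed (2 lower at an unadjusted p under 0.05). Cdh5 and Tek failed the background filter. The summed level was 0.69 to 0.93 in Anakinra and 0.999 to 1.09 in PBS. Most of it came from Egfl7, which averaged 0.66 in Anakinra and 0.92 in PBS. Pecam1 averaged -2.61 and -2.72, and Kdr -5.33 and -4.87. Of 5 immune markers 3 were tested and none passed (1 lower at an unadjusted p under 0.05). Ptprc and Cd3e failed the filter. The summed level was 0.80 to 1.16 in Anakinra and 0.80 to 1.13 in PBS. Most of it came from Cd68, which averaged 0.88 in Anakinra and 0.88 in PBS. Csf1r averaged -4.14 and -3.81, and Cd207 -4.44 and -4.59. The Anakinra values of Cd207 were -7.38, -2.11 and -3.83, with 2 of these arrays above background, so its mean there is not a steady level. The part of any such cells in the junction gene values was not tested.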

How the data were processed

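Total RNA of 6 keratinocyte cultures was measured on 6 Agilent 1-colour arrays, 3 from Anakinra and 3 from PBS, grouped by the treatment label. Per the file headers, the authors' scanner files hold intensity values from Agilent Feature Extraction 9.5.3.1, protocol GE1-v5_95_Feb07, on an array designed on build mm8; background subtraction and detrending were done array by array, and dim spots took a surrogate value. The deposited table of values is in log2 units and equals the log2 intensity plus 1 constant per array, to within 0.000505; its column medians were 5.74, 7.00 and 6.21 for Anakinra and 5.77, 5.83 and 6.22 for PBS, it is not centred per gene, and how the constants were set was not found in the labels or headers.

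Here the log2 processed intensity minus the array's 75th percentile was used, without control and outlier spots and with the spots of a probe averaged. A probe entered where every array of Anakinra or every array of PBS read it as well above background, with a minimum of 2 values in each group, and a gene was read from its brightest such probe. Names were updated through RefSeq tables of GRCm38.p6: of 41174 probes, 23366 were named by accession, 6739 by symbol, 2918 by synonym and 8151 kept the file's name. The file's Gja7 and Gja9 became Gjc1 and Gjd2, and its Gjc1 became Gjd3. A promoter window matched 34 of the 45 members; protein and probe sequences were not used here. Changes were tested with limma 3.58.1 (R 4.3.3, lmFit and eBayes, two-sided, Benjamini-Hochberg over 16495 genes) without covariates, after a test on simulated data. The number of arrays limits the precision.

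Full array values were given for members that passed the test or changed by at least 0.5, and for the brightest of each family. Further members (Cldn1, Cldn4, Gja1, Gjb6 and Ocln) were chosen after their values were seen. Of each other list, up to 4 called genes or the 2 with the lowest p were named, with Krt14 added as a defining basal marker. More fibroblast, hair follicle, endothelial and immune markers were added after their values were seen. Some members are counted but not reported singly here. Members, lists and tests were chosen with earlier results of these data known. The alternatives, in the closing section, changed the scaling, background correction, filter, probes, slide, replicate block, array weights and arrays used.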

Additional observations from a re-analysis of the deposited data

Results flagged for a closer look

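Of the 12 claudins and connexins outside the test, 11 were well above background on Anakinra 2, against 0 on Anakinra 1, 0 on Anakinra 3 and 2, 0 and 4 on PBS 1, 2 and 3. They drew attention because signal appeared in genes that the comparison does not use. The 86.5% of all probes above background on that array moved with them, and its part in these values was not tested.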

How the results depend on the processing

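Cldn7 was negative in all 18 alternatives, from -1.16 to -0.70, and lost its call in 12 of them; 11 of the 33 tested members kept their sign in each of these 18 and 22 did not. Of those 12, the differences within slide 1 and within slide 2 set 1 array against 2, so they give a direction and their lack of calls says nothing on stability. The precision is limited by 3 arrays a group, and the causes of the shifts below were not tested.

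All genes called higher and lower, 160 and 132 as reported, were 8 and 49 with per-array medians, 338 and 240 with genes above background on all 6 arrays, 7 and 29 with no filter, 18 and 35 with slide as a block, and 0 and 0 within slide 1 and within slide 2, where 1 array stands against 2 (limma; 1398 and 1255 at an unadjusted p under 0.05 without a block). Leaving out 1 array gave 1 to 97 higher and 7 to 137 lower; the lowest counts, 1 and 7, came without PBS replicate 2, and without PBS replicate 1 they were 1 and 20. Members called lower were 0 with medians, no filter, slide as a block, within either slide and without any 1 array (range 0 to 0), against 1 as reported. Members called higher were 1 (Gjb2) with normexp, quantile normalization and the filter on all 6 arrays, against 0 as reported. Other junction genes called lower were 1 with that filter and with array weights. The members' median of 0.15 was -0.011 with array weights, -0.18 with medians, 0.23 with no filter, 0.021 with quantile normalization, -0.064 within slide 1, 0.26 within slide 2, and -0.0015 to 0.19 without 1 array.

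The replicate block called 0 genes higher, 0 lower and 0 members lower, with Cldn7 at -0.83 (limma adjusted p = 0.274). Same-numbered arrays deviated together at r = 0.41, -0.49 and -0.21, so the numbers were not taken as pairs, and a call lost there is no sign of a weaker effect. Under the block Cldn17 was 0.041.

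Signs of members that had not passed also turned. Array weights gave Cldn10 -0.93, Cldn12 -0.011, Cldn15 -0.20, Cldn18 -0.59 and Gja4 -0.022. Medians gave Cldn1 -0.18, Cldn10 -0.096, Cldn12 -0.28, Cldn15 -0.086, Cldn23 -0.11, Cldn8 -0.18, Cldn9 -0.18, Gja4 -0.013, Gjd3 -0.064, Ocln -0.26, Tjp1 -0.15 and Tjp3 -0.086. The mean of a gene's probes gave Cgn 0.19, Gja5 0.36, Ocln -0.085 and Tjp1 -0.054. The probe placed at Gja5, an alternative chosen after seeing the data, gave 0.41, with its highest value on Anakinra 2. Normexp gave Cldn5 0.12, F11r 0.031 and Ocln -0.023, and quantile normalization Cldn15 -0.011, Cldn8 -0.087, Cldn9 -0.44, F11r 0.021 and Gjd3 -0.020. Slide as a block gave Cgn 0.021 and Cldn10 -0.26, and the authors' table Cgn 0.045 and Gja5 0.043. Slide 1 gave Cldn10 -2.22, Cldn12 -0.063, Cldn15 -0.80, Cldn18 -1.75, Cldn8 -0.064, Gja4 -0.34, Gjb1 -0.49 and Ocln -0.0038. Slide 2 gave Cgn 0.15, Cldn5 0.35, Gja5 0.24 and Gjd3 -0.085. Without 1 array the ranges were -0.088 to 0.047 for Cgn, -0.74 to 1.38 for Cldn10, -0.14 to 0.22 for Cldn12, -0.12 to 0.90 for Cldn14, -0.44 to 0.71 for Cldn15, -0.80 to 0.041 for Cldn17, -0.47 to 1.43 for Cldn18, -1.09 to 0.40 for Cldn5, -0.17 to 0.071 for Gja5, -0.27 to 0.76 for Gjd3, -0.10 to 0.24 for Ocln and -0.031 to 0.37 for Tjp1. With no turn of sign they were 0.020 to 0.36 for Cldn9, 0.026 to 0.68 for Gja4, -0.30 to -0.015 for Marveld3, -0.20 to -0.0015 for Gja1 and 0.059 to 0.52 for Tjp3.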
